A study of Homo sapiens with 87 samples.

Results

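The TCEAL and BEX genes form a family of small, largely unstructured nuclear and cytoplasmic proteins whose genes lie together on the long arm of the human X chromosome. The 8 genes described here were named by symbol: WBP5 (now called TCEAL9), TCEAL8, TCEAL1, TCEAL3, TCEAL4, BEX1, BEX2 and BEX4. They are 8 of the 35438 genes that both count tables list. They were selected on their CPM (counts scaled to the total of the library) in every group of both tables, because WBP5 and TCEAL8 were near their lowest values in many knockout clones. Their levels and fold changes are therefore descriptions, without p-values.

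TCEAL stands for transcription elongation factor A like, after a resemblance to the elongation factor TFIIS, which helps stalled RNA polymerase II to resume. BEX stands for brain expressed X-linked, and BEX proteins are adaptors that bind, among others, the neurotrophin receptor NGFR and the blood transcription factor LMO2. Both groups of genes are best known from brain, and several of them are known to be silenced by promoter methylation in tumours.

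The cells were HAP1, an established leukaemia-derived human line with close to a single set of chromosomes, in which subunits of the BAF (SWI/SNF) chromatin-remodelling complex had been removed. Single losses are covered by 75 libraries, 3 for each of 25 groups (the knockout table): 24 clones with a knockout of 1 of 22 genes, and wild type (WT). The knocked-out genes were ACTB, ARID1A (clones 618-10 and 618-3), ARID1B, ARID2, BCL11A, BCL11B, BCL7A, BCL7B, BRD7, BRD9, DPF1, DPF2, DPF3, PBRM1, PHF10, SMARCA2, SMARCA4 (clones 2878-4 and 2878-6), SMARCC1, SMARCC2, SMARCD1, SMARCD2 and SMARCD3. Double losses are covered by 12 libraries, 2 for each of 6 groups (the double-loss table): ARID2 knockout with SMARCA4 knockdown or control knockdown, SMARCA4 knockout with ARID2 knockdown or control knockdown, and WT with knockdown of both genes or control knockdown. Apart from ARID1A and SMARCA4, the labels of the knockout table name 1 clone a gene and 1 for WT, and none for SMARCC2, whose 3 libraries are counted here as 1 clone, so that a property of a clone and an effect of its knockout cannot be told apart. Separate cultures are not stated for the libraries of a group, so errors may measure technical spread only.

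Totals per knockout library lay between 14917644 and 29993652 counts, and those of double-loss libraries between 9144150 and 19789622, so that 1 count corresponded to 0.0333 to 0.067 CPM and 0.0505 to 0.109 CPM. Every deposited value was at least 1, and a gene at that lowest value was not detected above it. The targeted gene was called lower in 14 of the 24 clones and had all libraries below all WT libraries in 20. The other 4 were the clones labelled as knockouts of BCL11A (log2 fold change 0.11), BCL11B (0.45), BCL7A (-0.12) and BRD9 (-0.50), and PBRM1 differed little in its own knockout (-0.19, edgeR adjusted p = 0.206). RNA of the target thus does not check these 5 labels, and the groups are called by their labels throughout. Blood markers, among them PTPRC and GATA1, were under 1 CPM in all 25 groups, although the line came from a leukaemia. The summed level of 7 fibroblast markers was highest in SMARCA4 knockout 2878-4, at 5.32 times the 119 CPM of WT, and lowest at 23.5 CPM. That of 6 A549 markers ran from 3.38 CPM to 47.4 CPM in the SMARCD1 knockout, where NKX2-1 alone had 43.7 CPM. Their part in the results was not tested.

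WBP5 and TCEAL8 are described first, with the 300 bases around their start sites (250 before the site and 50 after it), because these are the genes whose RNA differed most between clones. The sequences are from RefSeq on build GRCh38.p14, read on each gene's own strand, with CG dinucleotides, the sites of DNA methylation, in capitals. The WBP5 window is chrX:103356256-103356555 on the plus strand and the TCEAL8 window is chrX:103255106-103255405 on the minus strand.
WBP5: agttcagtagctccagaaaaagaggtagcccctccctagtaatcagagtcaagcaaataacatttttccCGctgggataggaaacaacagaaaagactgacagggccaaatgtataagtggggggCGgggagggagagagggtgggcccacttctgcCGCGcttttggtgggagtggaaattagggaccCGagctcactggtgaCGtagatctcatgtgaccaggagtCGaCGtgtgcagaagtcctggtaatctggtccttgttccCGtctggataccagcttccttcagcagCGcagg
TCEAL8: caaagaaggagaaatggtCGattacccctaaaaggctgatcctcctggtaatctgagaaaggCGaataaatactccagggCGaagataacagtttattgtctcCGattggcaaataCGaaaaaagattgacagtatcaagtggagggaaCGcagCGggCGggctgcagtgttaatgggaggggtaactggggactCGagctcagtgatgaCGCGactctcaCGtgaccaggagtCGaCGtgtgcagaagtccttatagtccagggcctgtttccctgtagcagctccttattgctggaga
The WBP5 window holds 10 CG dinucleotides and the TCEAL8 window 14, against a median of 14 over all 35116 RefSeq promoters. A GC box (GGGCGG, searched on both strands) occurs in both windows and in 45.0% of all promoters. A CCAAT box occurs in the TCEAL8 window only, and in 34.6% of all promoters. A TATA box (TATAAA, found in 11.5% of all promoters) occurs in neither.

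The WBP5 and TCEAL8 windows share an unbroken run of 31 bases at the start of transcription, a stretch that was picked out after the sequences had been read.
Shared run: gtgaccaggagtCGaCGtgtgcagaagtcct
In WBP5 the run lies at chrX:103356472-103356502, beginning 34 bases before the start site. In TCEAL8 it lies at chrX:103255153-103255183, beginning 28 bases before the start site. Of the 35116 promoters, 3 hold it on either strand, those of WBP5, TCEAL8 and the unnamed locus LOC124905204. Stretches of this kind recur within the family: the longest run shared by the windows was 45 bases for BEX2 and BEX4, 43 bases for TCEAL3 and TCEAL6, and 38 bases for TCEAL3 and TCEAL2. The sequence overlap says nothing by itself about which factor binds there.

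WBP5 encodes a small protein first isolated through its binding to a WW domain, the protein module that recognises proline-rich stretches. None of the 24 clones overlapped the WT range: 6 clones lay above all WT libraries and 18 below. Over all 16159 genes tested, 14.4% of gene-clone pairs lay wholly above WT and 13.3% wholly below. WBP5 was chosen for this pattern, and only 24 of the 16159 genes stood apart from WT in all 24 clones.

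The 6 high clones included the knockouts of all 4 subunits specific to PBAF, the form of the complex that carries ARID2, PBRM1, BRD7 and PHF10. WBP5 had 127, 139.6 and 155.2 CPM in the BRD7 knockout, 144.8, 131.7 and 123.2 CPM in the PHF10 knockout, 133.8, 120.1 and 128.7 CPM in the PBRM1 knockout, and 129.4, 115.7 and 123.9 CPM in the ARID2 knockout, against 17.8, 13.7 and 19.1 CPM in WT. These 4 groups overlapped one another, and none of their libraries came near the WT range. The knockout of SMARCD2, a core subunit of the complex, fell in the same range with 133.5, 135.6 and 132.1 CPM. The BCL7B knockout, which lacks an accessory subunit, stood apart below these 5 groups with 67.9, 66.6 and 77.2 CPM, 4.18-fold above the WT mean. The log2 fold change over WT was 3.04 (SE 0.131) in the BRD7 knockout, 2.88 (SE 0.131) in the ARID2 knockout and 2.06 (SE 0.128) in the BCL7B knockout.

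Of the 20 clones without a PBAF-specific loss, 18 lay below WT, in a graded order at first. The DPF2 knockout had 11.6, 13.2 and 13.7 CPM of WBP5, just under the lowest WT library, with a log2 fold change of -0.41 (SE 0.129). SMARCA4 knockout 2878-4 had 6.86, 6.50 and 5.78 CPM and the DPF3 knockout 5.50, 6.78 and 6.07 CPM, and these groups overlapped. The SMARCD1 knockout had a mean of 2.44 CPM and ARID1A knockout 618-10 one of 1.23 CPM.

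In the remaining 13 clones every library had less than 1 CPM of WBP5, the level here called off. Their means ran down from 0.777 CPM in the DPF1 knockout to 0.0852 CPM in the SMARCC2 knockout, where the libraries had 0.0333, 0.109 and 0.114 CPM. The knockouts of ARID1B, BRD9, SMARCC1, SMARCA2 and ACTB were among them. The log2 fold change in the SMARCC2 knockout was -7.71 (SE 0.254), a value that depends on the prior count because so few counts remained. The lowest means rest on a few counts per library, so no fold between the highest and lowest clones is given. Of the 24 neighbouring pairs in the order of the 25 groups, 16 had overlapping libraries.

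**Figure D1:**
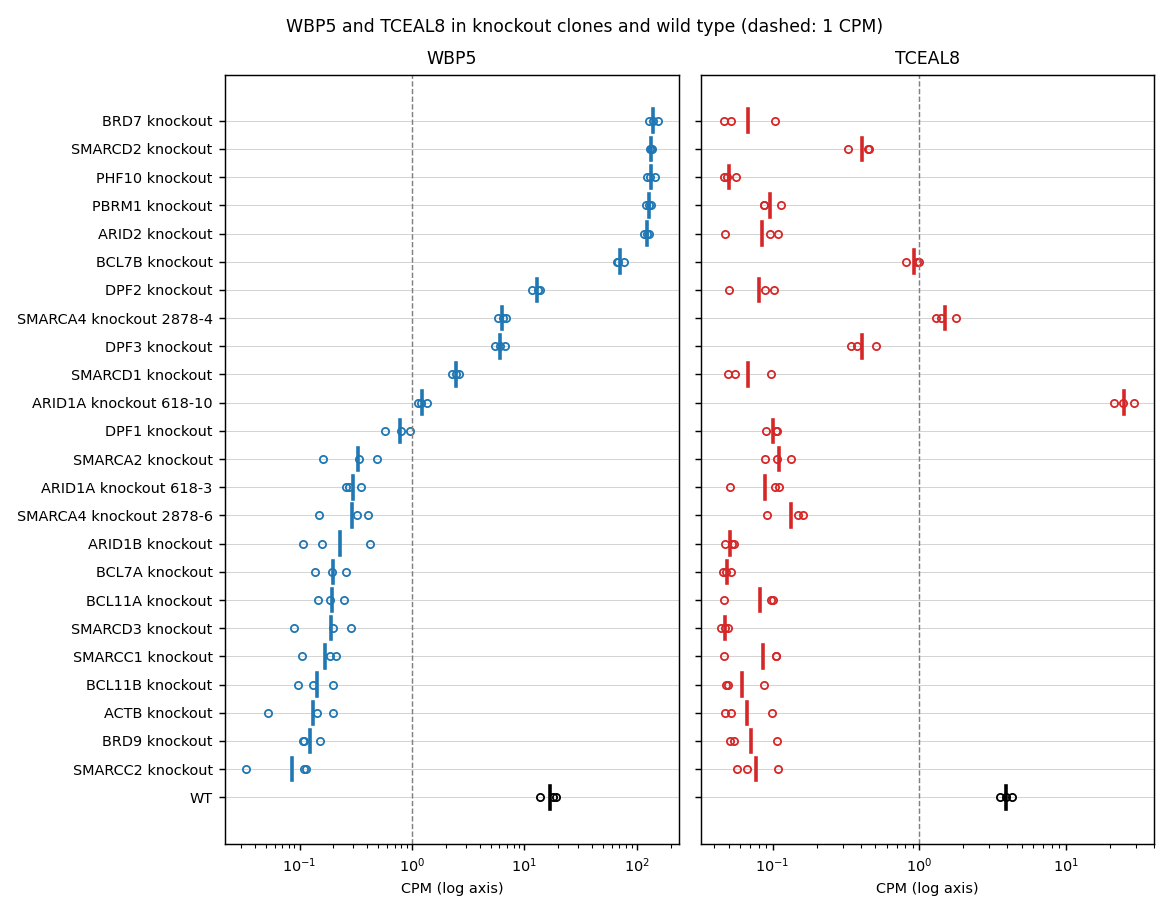
CPM (log axis) of WBP5 (left) and TCEAL8 (right) in each of the 24 knockout clones, ordered by WBP5, with WT at the bottom in black. Circles are libraries, vertical bars are group means and the dashed line is 1 CPM. WBP5 is above WT in 6 clones and under 1 CPM in 13, and TCEAL8 is above WT in 1 clone and under 1 CPM in 22.

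TCEAL8 is a little studied member of the elongation factor-like group. It also overlapped WT in no clone. It lay below all WT libraries in 23 clones and above them in 1. In 22 clones every library was under 1 CPM, and in 19 of these no library had more than 3 counts. Among the 11575 genes with a WT mean of at least 3 CPM, 2 were under 1 CPM in all libraries of 22 or more clones, TCEAL8, chosen for exactly that, and PXDN, a peroxidase of the basement membrane, which was named after its values were seen.

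In 4 clones, the knockouts of ARID1B, BCL7A, PHF10 and SMARCD3, all TCEAL8 libraries stood at the lowest listed value. With 3 counts per library as the floor, TCEAL8 was at least 25.4-fold lower in the ARID1B knockout than in WT, at least 26.8-fold lower in the BCL7A knockout, at least 25.8-fold lower in the PHF10 knockout and at least 27.6-fold lower in the SMARCD3 knockout. The BCL7B knockout kept 0.965, 1.00 and 0.812 CPM, just under the threshold of 1 CPM. The SMARCD2 knockout had 0.328, 0.453 and 0.449 CPM and the DPF3 knockout 0.374, 0.506 and 0.340 CPM. SMARCA4 knockout 2878-4 had 1.41, 1.30 and 1.77 CPM, just over that threshold and below every WT library.

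The clone that stood above WT was ARID1A knockout 618-10, with 24.7, 29.1 and 21.2 CPM of TCEAL8 against 3.53, 4.32 and 3.89 CPM in WT, and a log2 fold change of 2.66 (SE 0.146). The other ARID1A clone, 618-3, had 0.111, 0.0508 and 0.104 CPM and a log2 fold change of -5.40 (SE 0.235). That fold change depends on the prior count because so few counts remained. These clones of the same gene thus lay on opposite sides of WT. The SMARCA4 clones both lay below WT but also differed from each other, since SMARCA4 knockout 2878-6 had 0.162, 0.149 and 0.0911 CPM of TCEAL8, with no overlap with 2878-4. For WBP5 the same pairs were ordered alike: 618-10 was above 618-3 (0.278, 0.355 and 0.260 CPM), and 2878-4 was above 2878-6 (0.324, 0.149 and 0.410 CPM).

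Read together, both genes were off in 13 clones, TCEAL8 alone was off in 9, WBP5 alone was off in none, and neither was off in 2, which were ARID1A knockout 618-10 and SMARCA4 knockout 2878-4. All 6 clones with WBP5 above WT had TCEAL8 under 1 CPM. Over the 25 group means Spearman's rho between WBP5 and TCEAL8 was 0.38, a description of groups that share a WT clone and, for TCEAL8, mostly sit at the lowest counts. None of the 2064 50-base stretches of WBP5 transcripts and none of the 1261 of TCEAL8 transcripts (GENCODE v29) occurs in transcripts of another gene, which was also the read length.

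TCEAL1, TCEAL3 and TCEAL4 lie next to one another on the X chromosome and were expressed throughout. TCEAL1, a nuclear phosphoprotein that modulates transcription from some viral and cellular promoters, lay above all WT libraries in 6 clones, among them the ARID1B knockout with 24.7, 25.4 and 20.1 CPM against 18.4, 14.8 and 14.8 CPM in WT, and overlapped WT in the other 18. Of all gene-clone pairs, 14.4% lay wholly above WT and 13.3% wholly below. The clone means of TCEAL1 spanned only 1.73-fold, the narrowest span of the 7 members detected above the lowest value.

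TCEAL4 overlapped WT in 21 clones, where 14.4% of all gene-clone pairs lay wholly above WT and 13.3% wholly below. The BCL11B knockout was above WT at 77.9, 66.9 and 72.4 CPM. The BRD7 knockout (39.8, 40.0 and 35.0 CPM) and the PBRM1 knockout (42.5, 36.7 and 41.6 CPM) were below the WT libraries, which had 66.5, 48.3 and 42.9 CPM. The first WT library was the highest of its group for TCEAL4, as it was for TCEAL3, TCEAL1 and BEX4.

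For TCEAL3 the ARID2 knockout was the lowest group at 9.91, 7.72 and 8.42 CPM, against 28.2, 18.9 and 17.9 CPM in WT, a log2 fold change of -1.30 (SE 0.190). The ACTB knockout followed with 12.7, 14.7 and 10.5 CPM, and the BRD7 and PHF10 knockouts were also below all WT libraries. Thus 3 of the 4 PBAF-specific knockouts lay below WT for TCEAL3, while all 4 lay above it for WBP5. Of all genes tested, 16.1% lay wholly below WT in the ARID2 knockout, 11.3% in the BRD7 knockout and 10.5% in the PHF10 knockout. The TCEAL3 log2 fold change was only -0.44 (SE 0.184) in the BRD7 knockout and -0.39 (SE 0.184) in the PHF10 knockout. The BCL7B knockout, at 33.3, 30.2 and 29.4 CPM, was the only clone above WT. Of the 50-base stretches of TCEAL3 transcripts, 19.3% occur in transcripts of other genes, as do 14.4% of those of TCEAL1, most of them shared between the 2 genes, so their values are uncertain to the extent that the counting split such reads.

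BEX4 binds tubulin and is known to act on the deacetylase SIRT2. It lay above all WT libraries in 13 clones and below them in 3, beside 14.4% and 13.3% of all gene-clone pairs. SMARCA4 knockout 2878-6 was the highest group with 90.3, 102.8 and 94.5 CPM, against 61.2, 51.4 and 49.5 CPM in WT, a log2 fold change of 0.84 (SE 0.0869). SMARCA4 knockout 2878-4 had 91.8, 81.2 and 85.4 CPM, and the SMARCC1 knockout 99.9, 96.6 and 81.5 CPM. Both ARID1A clones were above WT as well, each with a log2 fold change of 0.59 (SE 0.0869). The ACTB knockout was lowest at 35.5, 39.7 and 37.2 CPM, and the BRD7 and DPF1 knockouts were the other 2 below WT. No BEX4 log2 fold change reached 1 in size.

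BEX2 is known to bind LMO2 and to affect survival of breast cancer cells. It was under 1 CPM in all libraries of 21 clones. The exceptions were 3 of the 4 clones in which ARID1A or SMARCA4 was lost: ARID1A knockout 618-10 had 5.63, 6.24 and 3.91 CPM, SMARCA4 knockout 2878-4 had 2.25, 2.14 and 2.52 CPM, and SMARCA4 knockout 2878-6 had 0.863, 0.893 and 1.55 CPM. The WT libraries had 0.224, 0.180 and 0.136 CPM. Their log2 fold changes were 4.83 (SE 0.295), 3.68 (SE 0.306) and 2.62 (SE 0.325). ARID1A knockout 618-3 was lower, with 0.278, 0.305 and 0.624 CPM, still above every WT library. Its log2 fold change of 1.14 (SE 0.377) was near those of the SMARCC1 (1.199), DPF2 (1.146), SMARCD1 (1.095) and SMARCD3 (1.027) knockouts. In all, BEX2 lay above all WT libraries in 8 clones and below them in 7, beside 14.4% and 13.3% of all gene-clone pairs. The 3 clones with the highest BEX2 thus included the 2 clones in which neither WBP5 nor TCEAL8 was off.

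BEX1, known as a regulator of neurotrophin signalling and of regenerating muscle and nerve, did not leave the lowest listed value in any library of the 24 clones and never exceeded 0.067 CPM. It was the 1 member of 8 that did not pass the filter on low counts. RefSeq lists BEX1 as an older name of BEX2 and BEX2 as an older name of BEX1, and the files do not say which usage they follow, so these symbols may be interchanged. The windows of BEX4 and BEX1, the members with the highest and lowest median level per kilobase of exon, are printed as a contrast to those of WBP5 and TCEAL8. They lie at chrX:103214842-103215141 on the plus strand for BEX4 and chrX:103064122-103064421 on the minus strand for BEX1 (GRCh38.p14, RefSeq), with CG dinucleotides in capitals.
BEX4: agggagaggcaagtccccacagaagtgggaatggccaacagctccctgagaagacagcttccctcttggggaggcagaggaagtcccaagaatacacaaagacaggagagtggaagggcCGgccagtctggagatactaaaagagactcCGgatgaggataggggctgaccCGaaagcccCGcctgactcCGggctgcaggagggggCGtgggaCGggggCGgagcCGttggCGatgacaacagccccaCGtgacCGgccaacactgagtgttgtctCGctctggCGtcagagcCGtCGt
BEX1: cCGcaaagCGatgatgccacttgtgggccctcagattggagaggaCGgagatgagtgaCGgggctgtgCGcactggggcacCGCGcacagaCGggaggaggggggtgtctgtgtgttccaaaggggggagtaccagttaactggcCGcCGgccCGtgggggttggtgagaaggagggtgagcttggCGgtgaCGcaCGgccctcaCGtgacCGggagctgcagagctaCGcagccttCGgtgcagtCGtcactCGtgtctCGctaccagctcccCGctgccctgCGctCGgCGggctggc
BEX4 holds 16 CG dinucleotides and BEX1 25, while the RefSeq window of BEX2 holds 17. If the symbols are interchanged in the counts, the BEX2 window belongs to the gene at the lowest value. No contrast in CG content is therefore drawn. The BEX4 and BEX1 windows contain the letters CACGTGAC, searched on both strands after the sequences had been read. These letters occur in 2.4% of all promoters. Of the 13 family genes with a RefSeq promoter, 7 hold these letters in any of their windows. So do 5 of the 8 members, among them TCEAL8 but not WBP5. These counts are by gene, and some family genes have several windows, while the 2.4% is a share of single windows.

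**Figure D2:**
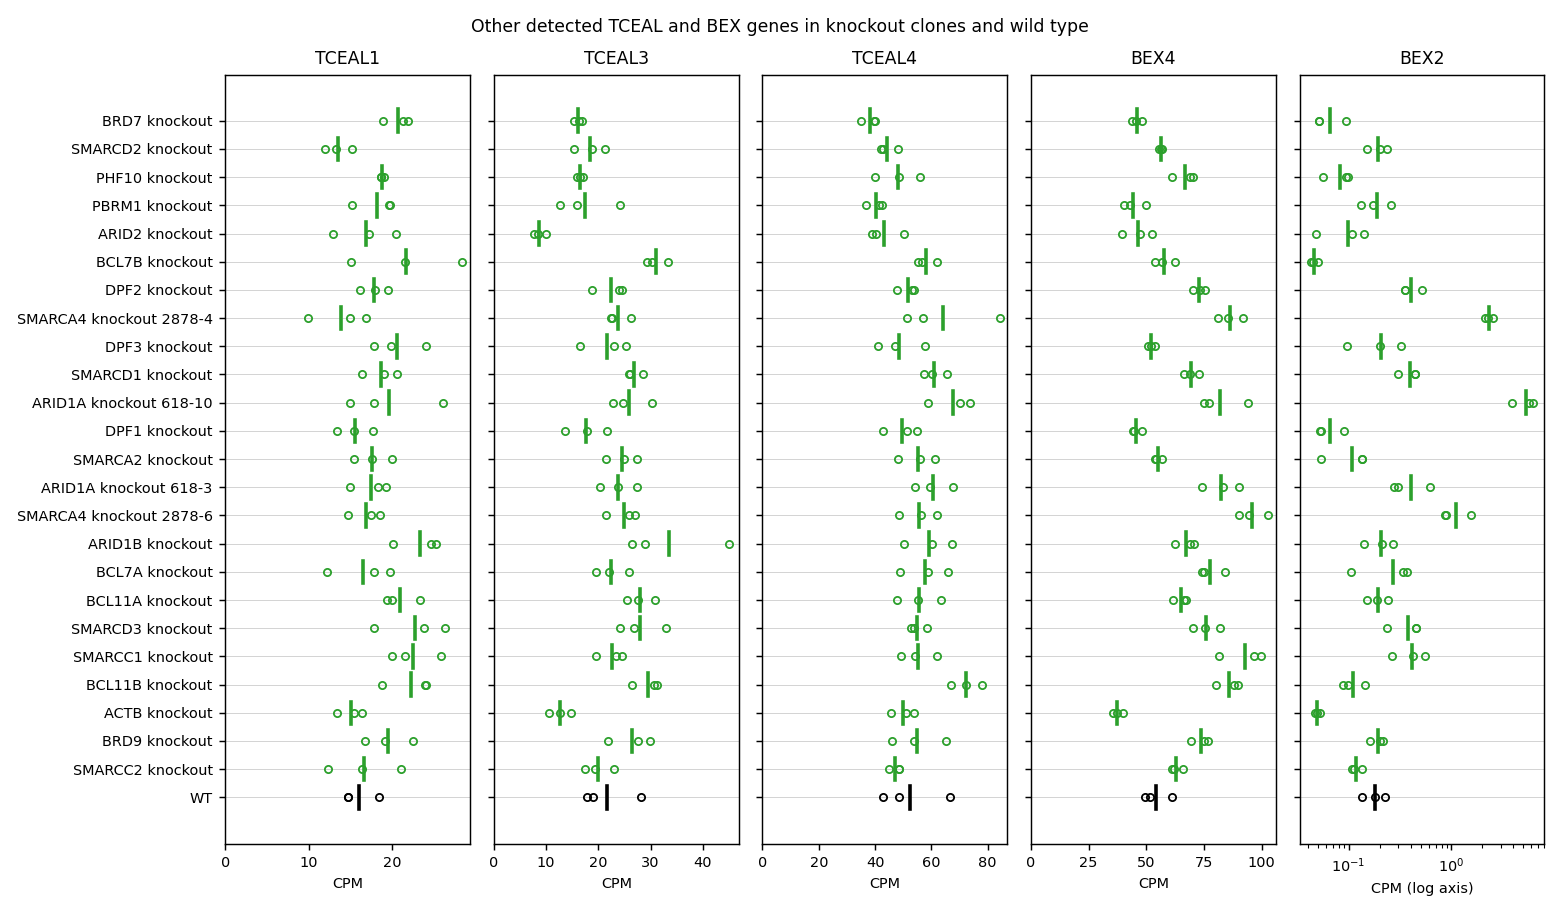
CPM of TCEAL1, TCEAL3, TCEAL4, BEX4 and BEX2 (log axis for BEX2 only) in the 24 knockout clones, in the order of WBP5, with WT at the bottom in black. Circles are libraries and vertical bars are group means. TCEAL1 and TCEAL4 overlap WT in 18 and 21 clones, TCEAL3 is lowest in the ARID2 knockout, BEX4 is highest in SMARCA4 knockout 2878-6, and BEX2 is highest in ARID1A knockout 618-10.

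Levels were also divided by the length of the exons (GENCODE v29). The median over the 75 libraries of the knockout table was 49.9 CPM per kilobase for BEX4, 24.2 for TCEAL4, 16.5 for TCEAL3 and 14.4 for TCEAL1. It was 0.408 for WBP5, 0.159 for BEX2 and 0.0794 for TCEAL8. WBP5 ranged from 0.0169 to 78.6 CPM per kilobase over single libraries. The other members formed pairs that varied alike over the 25 group means. Spearman's rho was 0.81 for TCEAL3 and TCEAL4, 0.75 for BEX2 and BEX4, and 0.72 for TCEAL4 and BEX4. WBP5 had negative rank correlations with TCEAL3 (-0.42) and TCEAL4 (-0.39).

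In the double-loss table WBP5 again stood on opposite sides of WT in the ARID2 and SMARCA4 knockouts. It had 126.5 and 119 CPM in ARID2 knockout with SMARCA4 knockdown, and 78.7 and 90.6 CPM in ARID2 knockout with control knockdown. It had 0.240 and 0.327 CPM in SMARCA4 knockout with ARID2 knockdown, and 0.425 and 0.198 CPM in SMARCA4 knockout with control knockdown. WT with both knockdowns had 11.5 and 11.1 CPM, and WT with control knockdown 10.7 and 12.1 CPM. Both ARID2 knockout groups lay above WT with control knockdown and both SMARCA4 knockout groups below it, while the double knockdown in WT overlapped it. Of all gene-group pairs, 24.6% lay wholly above that control and 21.8% wholly below.

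Against WT with control knockdown, the WBP5 log2 fold change was 3.37 (SE 0.203) in ARID2 knockout with SMARCA4 knockdown, 2.89 (SE 0.200) in ARID2 knockout with control knockdown, -5.36 (SE 0.306) in SMARCA4 knockout with ARID2 knockdown, -5.15 (SE 0.289) in SMARCA4 knockout with control knockdown and -0.03 (SE 0.194) in WT with both knockdowns. The ARID2 value stands beside 2.88 in the knockout table. Inside the ARID2 knockout, SMARCA4 knockdown went with a further 0.48 (SE 0.182), and inside the SMARCA4 knockout, ARID2 knockdown with -0.21 (SE 0.480). The labels do not say which SMARCA4 clone was used here. The tables were scaled separately.

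TCEAL8 had 0.0927 and 0.0837 CPM in ARID2 knockout with SMARCA4 knockdown, 0.109 and 0.178 CPM in ARID2 knockout with control knockdown, 0.0600 and 0.164 CPM in SMARCA4 knockout with ARID2 knockdown, and 0.106 and 0.0661 CPM in SMARCA4 knockout with control knockdown. All 4 knockout groups were near the lowest value. WT with both knockdowns had 1.66 and 1.77 CPM, below the 2.81 and 2.97 CPM of WT with control knockdown, a log2 fold change of -0.76 (SE 0.309). Of all genes tested, 20.8% lay wholly below that control in this group. In WT with both knockdowns, WBP5 and TCEAL8 thus stayed above 1 CPM in both libraries.

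Of the other members, TCEAL3 was again low in ARID2 knockout with control knockdown (12.3 and 12.3 CPM) against WT with control knockdown (25.8 and 27.5 CPM), a log2 fold change of -1.12 (SE 0.204). BEX4 had 98.8 and 101.0 CPM in SMARCA4 knockout with control knockdown and 58.4 and 58.8 CPM in WT with control knockdown, a log2 fold change of 0.72 (SE 0.172). BEX2 had 0.850 and 1.26 CPM in SMARCA4 knockout with control knockdown and 0.255 and 0.412 CPM in WT with control knockdown (1.61, SE 0.448). Its log2 fold change was 0.78 (SE 0.489) in SMARCA4 knockout with ARID2 knockdown. It was negative in WT with both knockdowns (-1.96, SE 0.648) and in ARID2 knockout with control knockdown (-1.65, SE 0.734) or SMARCA4 knockdown (-1.30, SE 0.668). TCEAL1 lay above WT with control knockdown (16.6 and 13.5 CPM) in all 5 other groups, with 25.9 and 21.9 CPM in WT with both knockdowns. Its log2 fold changes ran from 0.13 (SE 0.219) in SMARCA4 knockout with control knockdown to 0.73 (SE 0.219) in SMARCA4 knockout with ARID2 knockdown. The 5 groups share that control, and 24.6% of all gene-group pairs lay wholly above it.

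**Figure D3:**
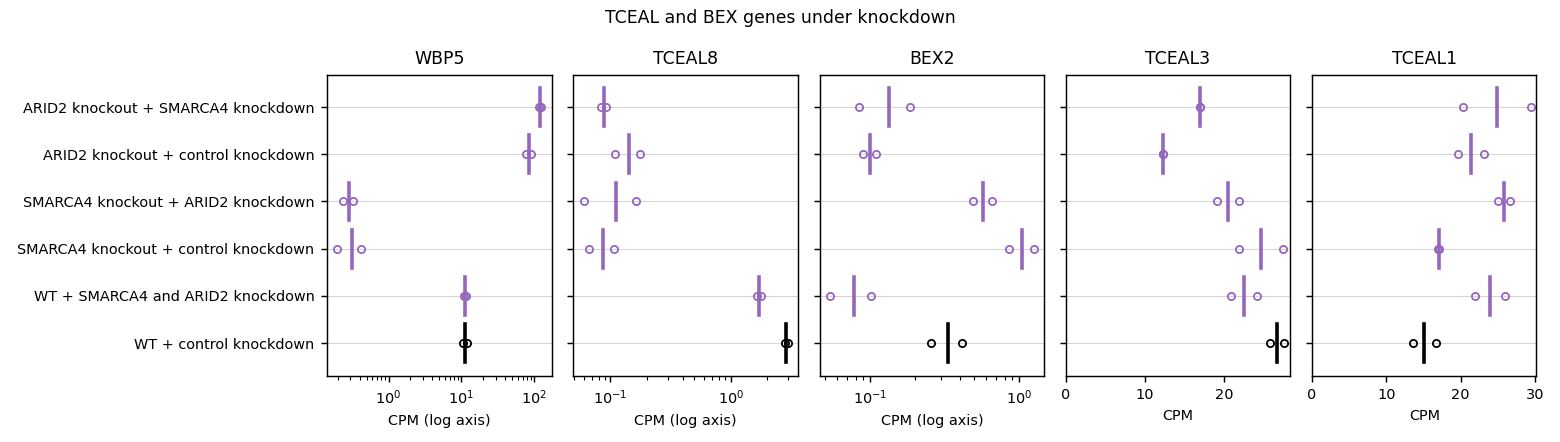
CPM of WBP5, TCEAL8 and BEX2 (log axes) and of TCEAL3 and TCEAL1 (linear axes) in the 6 double-loss groups, with WT under control knockdown at the bottom in black. Circles are the 2 libraries of a group and vertical bars their mean. WBP5 is high in both ARID2 knockout groups and near its lowest value in both SMARCA4 knockout groups, and TCEAL8 is low in all 4 knockout groups.

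The rest of the family was tested in the fit over all genes, from a list drawn up with earlier results of these data known. Calls required a log2 fold change of 1 or more in size and an adjusted p of 0.05 or less (edgeR's quasi-likelihood test, Benjamini-Hochberg). Of 6 further family genes listed, 4 were tested in the knockout table, and of their 96 gene-clone pairs 14 were called lower and 12 higher. Over all genes 2.24% of gene-clone pairs were called lower and 2.46% higher. The median log2 fold change of the list was -0.04, and that of all genes -0.01.

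TCEAL2, which lies near BEX5 on the X chromosome, made 17 of these calls, TCEAL5 made 5 and BEX5 made 4. Those of TCEAL5 are descriptions only, for the reason given below. TCEAL2 was called lower in 8 clones and higher in 9. TCEAL2 had 0.192, 0.109 and 0.0941 CPM in the ARID2 knockout, against 4.09, 2.20 and 2.49 CPM in WT (log2 fold change -4.38, SE 0.376, edgeR adjusted p = 2.318e-14). It had 0.311, 0.312 and 0.233 CPM in the BRD7 knockout (-3.34, adjusted p = 4.254e-12), 0.391, 0.395 and 0.342 CPM in the PBRM1 knockout (-2.95, adjusted p = 4.715e-11) and 1.54, 0.686 and 0.843 CPM in the PHF10 knockout (-1.48, adjusted p = 4.481e-05). TCEAL2 thus fell in all 4 PBAF-specific knockouts, in which WBP5 was high. It also fell in the ACTB knockout (-4.06), in both SMARCA4 clones (-2.38 in 2878-4 and -1.34 in 2878-6) and in the DPF2 knockout (-1.28).

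TCEAL2 rose to 32.8, 24.7 and 27.5 CPM in the BCL7B knockout (3.28, SE 0.226, edgeR adjusted p = 3.965e-18). It rose to 24.2, 21.6 and 16.9 CPM in the ARID1B knockout (2.85) and to 21.2, 22.5 and 20.1 CPM in the SMARCD1 knockout (2.84). In the double-loss table it fell in both ARID2 knockout groups (-5.42 with SMARCA4 knockdown and -4.39 with control knockdown, adjusted p = 0.00263 and 0.0171) and in SMARCA4 knockout with ARID2 knockdown (-3.39, adjusted p = 0.00841). WT with control knockdown had 6.57 and 12.3 CPM there, a wide spread for 2 libraries.

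BEX5 followed a similar order, with a Spearman's rho of 0.85 to TCEAL2 over the 25 group means. It was called lower in the ARID2 knockout (1.15, 1.80 and 0.894 CPM against 5.94, 4.90 and 5.38 CPM in WT, log2 fold change -2.07, edgeR adjusted p = 4.354e-14), in the ACTB knockout (-1.30) and in SMARCA4 knockout 2878-4 (-1.08), and higher in the ARID1B knockout (1.05, adjusted p = 1.928e-07). In the double-loss table BEX5 fell in the 3 groups in which TCEAL2 fell. Of the 15 gene-group pairs of the list there, 6 were called, all of them lower, where 2.7% of all pairs were called lower and 2.52% higher. TCEAL5, near the lowest value in WT (0.168, 0.135 and 0.542 CPM), was called lower in 3 clones and higher in 2. The higher calls were in the BCL7B knockout (2.03, 1.64 and 1.80 CPM, log2 fold change 2.63) and ARID1A knockout 618-10 (0.536, 0.651 and 0.706 CPM). TCEAL5 passed the filter on low counts through these clones, in which it was high. Its calls are therefore descriptions and carry no support.

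NGFRAP1 (now BEX3), a death-signalling adaptor of NGFR and the gene next to WBP5, had log2 fold changes from -0.71 to 0.51, so that no clone reached the size threshold. Its clone means ran from 134.5 CPM in the ACTB knockout to 322.1 CPM in ARID1A knockout 618-3, against 219.4, 208.1 and 239.4 CPM in the WT libraries. TCEAL6 and TCEAL7 were too low to be tested.

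**Figure D4:**
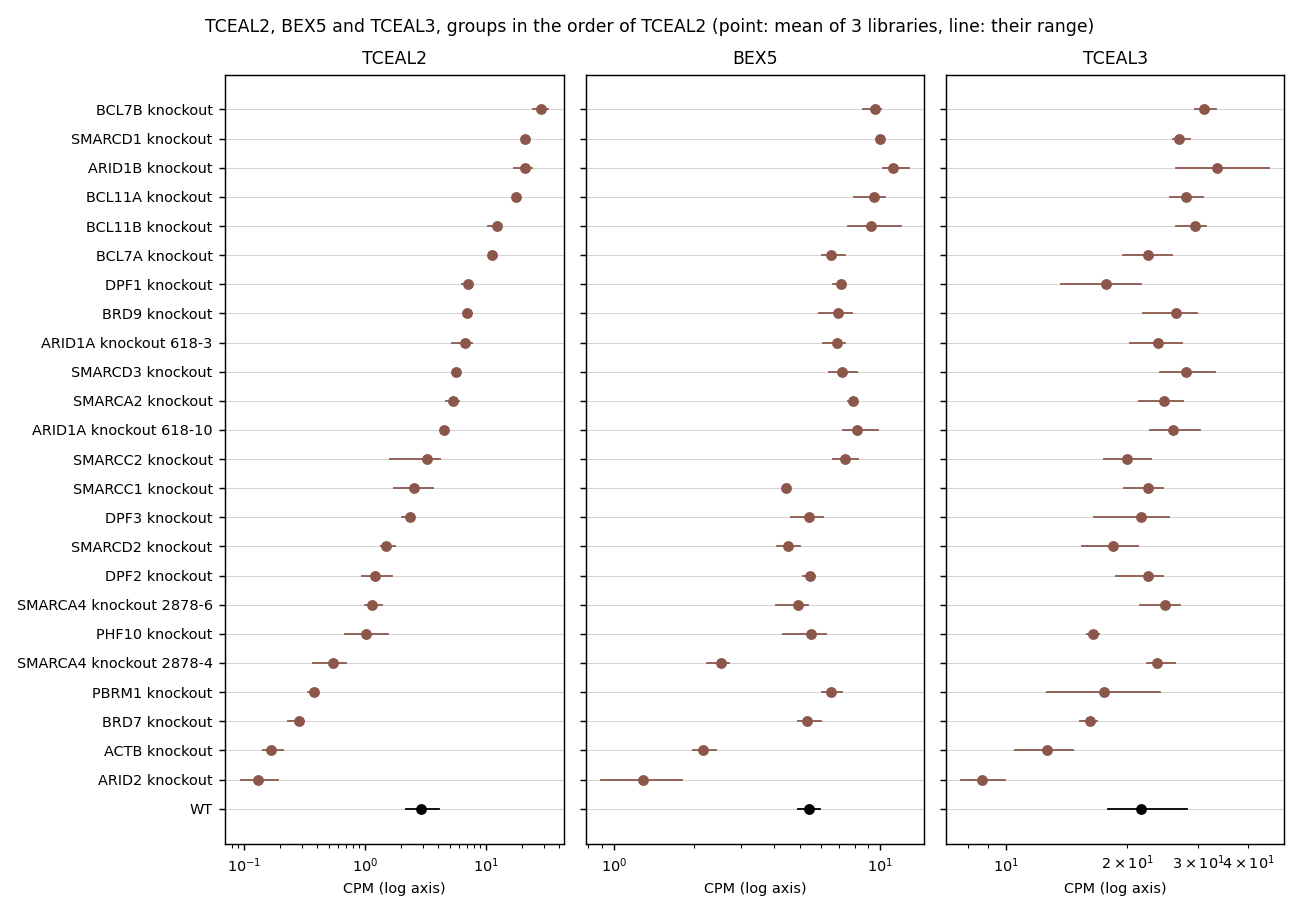
CPM (log axes) of TCEAL2, BEX5 and TCEAL3 in the 24 knockout clones, in the order of TCEAL2, with WT at the bottom in black. Points are means of 3 libraries and lines their range. TCEAL2 is highest in the BCL7B knockout, and the ARID2 knockout is the lowest clone for all 3 genes.

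The family sits among unrelated genes on the X chromosome, of which 49 are listed in the tables and 35 were tested. Of their 840 gene-clone pairs, 28 were called lower (3.33%, beside 2.24% of all pairs) and 20 higher (2.38%, beside 2.46%). Their median log2 fold change was -0.02. At least 1 call was made for 13 of the 35 genes (37.1%), and for 25.3% of all genes tested. Of 7 tested neighbours that lie between family genes, 2 were called, each in 1 clone: GPRASP1 was lower in the BCL7B knockout (-1.01, SE 0.265, edgeR adjusted p = 0.00339) and RAB40AL higher in the BRD9 knockout (1.71, SE 0.569, adjusted p = 0.0482). The WT mean of RAB40AL was only 0.146 CPM, a level of about 3 counts. The other 5 stayed below the size threshold in every clone, among them RAB40A with log2 fold changes between -0.91 and 0.10 and BHLHB9 between -0.63 and 0.54. Over the region, most calls came from 2 genes farther off. SRPX2, a secreted protein linked to synapse formation and angiogenesis, was called lower in 8 clones and higher in 8, with its largest rise in ARID1A knockout 618-3 (log2 fold change 5.02, SE 0.307, edgeR adjusted p = 2.550e-20). TMEM35, an endoplasmic reticulum protein that helps assemble nicotinic receptors, was called lower in 7 clones and higher in 3, with its largest fall in the SMARCD1 knockout (-5.26, SE 0.203, edgeR adjusted p = 2.026e-29).

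**Figure D5:**
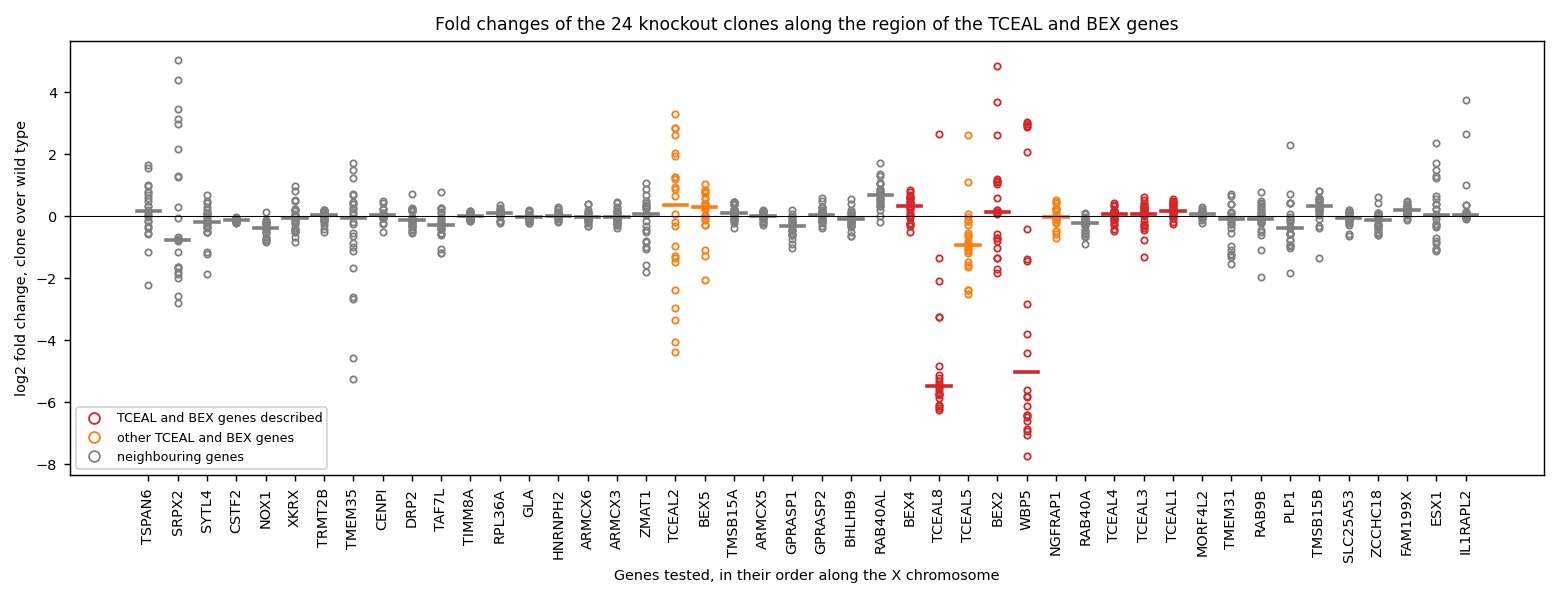
Log2 fold change over WT in each of the 24 knockout clones (circles) for the tested genes of the region, in their order along the X chromosome. Horizontal bars are medians over clones, in red for the members described, orange for other family genes and grey for neighbours. WBP5 and TCEAL8 have medians far below 0, while most neighbours stay near 0.

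Genes of the elongation machinery, for which the TCEAL genes are named, gave 2 calls among 504 gene-clone pairs from 21 genes, beside the 2.24% called lower and 2.46% called higher over all genes. Both were higher, namely ELL2 in the SMARCC1 knockout (1.38, SE 0.129) and NELFB in the BCL7A knockout (1.01, SE 0.0635). TCEA1, which encodes TFIIS itself, had log2 fold changes between -0.22 and 0.77, against a WT level of 274 CPM.

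Known binding partners of BEX proteins were followed in the knockout table, where 2.24% of all gene-clone pairs were called lower and 2.46% higher. NGFR, the neurotrophin receptor bound by BEX1 and NGFRAP1, rose in 6 clones. It had 21.7 ± 3.35 CPM in ARID1A knockout 618-10 and 5.17 ± 1.09 CPM in WT (SD, n = 3 each; log2 fold change 2.06, SE 0.244, edgeR adjusted p = 6.796e-10). Both ARID1A clones, both SMARCA4 clones, and the ACTB and BCL11A knockouts were the 6. NHLH2, a neuronal transcription factor, was called lower in 2 clones, SMARCA4 knockout 2878-4 (log2 fold change -2.999, SE 1.13, edgeR adjusted p = 0.033) and SMARCA4 knockout 2878-6 (-3.01, SE 1.13, adjusted p = 0.034), against a low WT mean of 0.696 CPM. LDB1, which bridges LMO2 to other DNA-bound factors, and SIRT2, the deacetylase on which BEX4 acts, reached the size threshold in no clone, with log2 fold changes from -0.55 to 0.23 for LDB1 and from -0.42 to 0.85 for SIRT2. LMO2, the partner of BEX2, was too low to be tested.

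Genes outside the family that ranked the groups most like WBP5 and TCEAL8 were sought over the 25 group means, with Spearman's rho on log2 CPM as the measure. For WBP5 these were GCFC2 (0.85), PPAT (0.72), EXD2 (0.71), WDR75 (0.70) and LINC00632 (0.68). For TCEAL8 they were SLC7A3 (0.75), SNRNP40 (0.69), RABEPK (0.69), DYNLL1 (0.69) and PSMA1 (0.68). In 19 of the 24 clones no TCEAL8 library had more than 3 counts. Most TCEAL8 ranks thus set no order among clones, and likeness to TCEAL8 cannot be read from this list. GCFC2 had a narrow range, from 16.1 CPM in the SMARCC2 knockout to 40.6 CPM in the SMARCD1 knockout. SLC7A3, an amino acid transporter, had a wide one, from 0.136 CPM in the SMARCD1 knockout to 198.9 CPM in SMARCA4 knockout 2878-6. With Pearson's r in place of rho, the leading genes were GABRA5 (0.78) for WBP5 and EPCAM (0.74) for TCEAL8, and the lists shared 1 (EXD2, r = 0.65) and 0 of 5 genes. GABRA5, a subunit of the GABA-A receptor, was highest in the BRD7 knockout at 96.0 CPM and lowest in the BCL11B knockout at 0.0473 CPM, and WBP5 was highest in the BRD7 knockout as well and under 1 CPM in the BCL11B knockout.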

How the data were processed

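Poly-A RNA of HAP1 cells was sequenced as single reads of 50 bases from stranded libraries, per the labels. The authors deposited estimated counts (expected counts) per gene in 2 tables, which were already whole numbers, with a minimum of 1. Trimmomatic, Bowtie, Picard and DESeq2 and the builds GRCh37 and hg19 are named per the submitters' processing notes. Versions, annotation and the way of counting shared reads were not given in the sources used here. A further table of the authors holds quantile-normalized log2 TPM values, per the labels and its header; 71 of its columns served for an alternative. In all, 8 columns matched no single sample and were not used.

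CPM is a count divided by the library's total and multiplied by 1000000. Counts were tested in R 4.3.3 with edgeR 4.0.16 (TMM, filterByExpr, robust quasi-likelihood, each table fitted whole with 1 term a group), which kept 16159 genes for the knockouts and 14601 for the double losses, with Benjamini-Hochberg adjustment over all of them; the fit was tested on simulated data. SE is the size of the log2 fold change divided by the square root of the F statistic, an approximation. Where few counts remained, the fold change depends on the prior count, and this SE can understate the error. Members, lists and thresholds were chosen with earlier results of these data known. All 8 members are named, list genes by the number of clones in which they were called, and look-alike genes as the 5 with the highest rank correlation of log2(CPM + 0.5) among genes reaching a group mean of 5 CPM. RefSeq promoters were matched by symbol for 8 of 8 members. Replicate libraries were never closer than sampling noise allows (lowest chi-square per degree of freedom 7.48). 1 gene on the list of BEX binding partners is not reported here, nor are counts over that list. Intervals and floors cover counting error only. Same-numbered libraries of the knockout table deviated together in some pairs of groups only (403 of 900 correlations of their deviations above 0.1). The median correlation was 0.0648 for same-numbered libraries and -0.0355 for differently numbered ones. No replicate block was used in the main fit.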

Additional observations from a re-analysis of the deposited data

Results flagged for a closer look

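TCEAL8 lay on opposite sides of WT in the clones of ARID1A: its mean was 25.01 CPM in ARID1A knockout 618-10 and 0.0886 CPM in ARID1A knockout 618-3, against 3.91 CPM in WT. Every library of 618-10 was above all WT libraries and every library of 618-3 below them. The difference between the clones was not tested, since the values had chosen the gene. ARID1A itself was below all WT libraries in both clones, with a log2 fold change of -0.90 in 618-10 and -1.24 in 618-3. BEX2 was also higher in 618-10 than in 618-3, while BEX4 had a log2 fold change of 0.59 in both.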

How the results depend on the processing

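WBP5 was under 1 CPM in 13 clones and TCEAL8 in 22, and the counts stayed within 1.5 times of these with thresholds of 0.5 and 2 CPM, with TMM-scaled values and with 1 subtracted from every count. In the authors' log2 TPM values, 23 of 23 clones compared kept their position against WT for WBP5, TCEAL8 and TCEAL4, 22 for TCEAL3 and 21 for TCEAL1, BEX2 and BEX4. Of 2002 member fold changes recomputed, 180 moved by more than the spread between libraries, and 0 of those of at least 1 in size changed sign. In the knockout table the counts of calls stayed within 1.5 times under DESeq2 1.42.0, no filter, the replicate block and leaving out each replicate number (family genes lower 11 to 16, higher 10 to 13; neighbours lower 22 to 29, higher 15 to 20). The double-loss table was less stable. A knockdown inside a knockout gave 173 genes called lower and 251 higher, of which SMARCA4 knockdown inside the ARID2 knockout made 173 and 248; the lower count was 273 with DESeq2 and 108 without a filter. Same-numbered libraries deviated together there in 30 of 30 pairs of groups, but with 2 libraries a group the numbers are only a label. With the replicate block the counts were 397 lower and 422 higher inside knockouts, 2955 lower against WT with control knockdown (1969 without it), and 10 lower among the neighbours (3 without it). Leaving out 1 library at a time, chosen after seeing the data, gave 40 to 342 lower and 26 to 524 higher inside knockouts, moved over 1.5 times by each library of ARID2 knockout with either knockdown and of SMARCA4 knockout with ARID2 knockdown. It gave 1220 to 2384 lower against WT with control knockdown (1220 without its replicate 2), 1 to 6 among the neighbours (5 without ARID2 knockout with SMARCA4 knockdown replicate 2, and 6 and 1 without replicates 1 and 2 of WT with control knockdown), and 5 to 10 among the other family genes (10 without WT with both knockdowns replicate 2). The lone library left is assumed to vary like the other groups, and the cause of these moves was not tested. Among knockout libraries 3 counts corresponded to 0.1 to 0.201 CPM, and values at or below 3 counts set no order among clones.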
